A study of Mus musculus with 6 samples.

Results

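The retinoid binding, receptor and response genes described here were 8 of the 19532 genes in the deposited counts: the cellular carriers Crabp1 and Crabp2, the retinol importer Stra6, the retinal reductase Dhrs3, the receptors Rara, Rarg and Rxrg, and Stra8, a gene named for its stimulation by retinoic acid. They were taken by symbol, all 8 were found, and all 8 passed the filter on low counts, Rxrg through its primed_4d libraries alone. The set was drawn up with the levels of these genes across the culture conditions in view, so those levels and their differences are a description and carry no test. Single sorted cells of the mouse embryonic stem cell lines IB10 and R1 were measured in 3 culture conditions, with 1 library of 188 wells for each line and condition. The medium of all groups was serum-free N2B27 with LIF, on plates coated with gelatin and fetal calf serum. For primed_4d, the additions were FGF2 (12 ng/ml), Activin A (20 ng/ml) and IWP2 (2 µM), a compound that blocks WNT secretion, and the culture lasted 4 days. For rosette_LIM they were IWP2 (2 µM) and the MEK inhibitor PD325901 (0.1 µM), kept up over 5 passages in IB10 and 6 in R1. For LIF_2i they were the GSK3 inhibitor CHIR99021 (3 µM) and PD325901 (0.1 µM). IB10 cells were at passage 28 in primed_4d, 33 in rosette_LIM and 28 in LIF_2i, and R1 cells at passage 24, 28 and 24. No retinoid was named among the additions. The retinoid content of the base medium and of the serum on the plates was not measured, so the cultures cannot be taken as free of retinoids.

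Retinol enters cells through STRA6, is oxidised to retinal and then to retinoic acid, and can be turned back at the retinal step by DHRS3. Retinoic acid is carried in the cytoplasm by CRABP1 and CRABP2, and CRABP2 is known for handing it to nuclear receptors. These are heterodimers of a retinoic acid receptor (RARα, β or γ) with a retinoid X receptor (RXRα, β or γ), which sit on direct repeats of a short half-site and recruit corepressors without ligand and coactivators with it. In mouse embryonic stem cells retinoic acid is a classical trigger of differentiation, and in the germ line it switches on Stra8 at the entry into meiosis.

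The libraries held 5221351 (IB10) and 4614580 (R1) UMIs in primed_4d, 5093785 and 5748432 in rosette_LIM, and 7688723 and 6696251 in LIF_2i. The median well held 11250 UMIs in R1 primed_4d, where 84 of the 188 wells were under 6000 UMIs, and between 26868 and 40975.5 UMIs in the other 5 libraries, where 4 to 38 wells were. In R1 LIF_2i, 2 wells held 12.7% of the UMIs. Summed naive pluripotency markers (5 genes) lay between 218 and 298 CPM (counts scaled to library size) in primed_4d and between 2116 and 2552 CPM in the other 4 libraries, and primed markers (4 genes) between 1116 and 1139 CPM in primed_4d and between 54.0 and 97.0 CPM in the others. Markers of feeder fibroblasts (5 genes) summed to 3.29 to 11.3 CPM with Col3a1 and Lum at 0 in every library, and those of primitive endoderm (6 genes) to 5.61 to 14.5 CPM. Neuroectoderm markers (4 genes) summed to 75.3 (IB10) and 144 CPM (R1) in primed_4d, 171 and 214 CPM in rosette_LIM, and 77.5 and 87.6 CPM in LIF_2i. This list was therefore highest in rosette_LIM, where Crabp2, Stra8 and Dhrs3 also had high values, and its part in those values was not tested.

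Across the conditions the 8 genes followed several patterns. Crabp2 was low in LIF_2i and about equally high in primed_4d and rosette_LIM. Rara and Rarg were highest in primed_4d, Rxrg was found almost entirely there, and Stra8 and Dhrs3 were highest in rosette_LIM. Crabp1 was the only member whose primed_4d libraries both lay below all libraries of the other conditions.

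**Figure D1:**
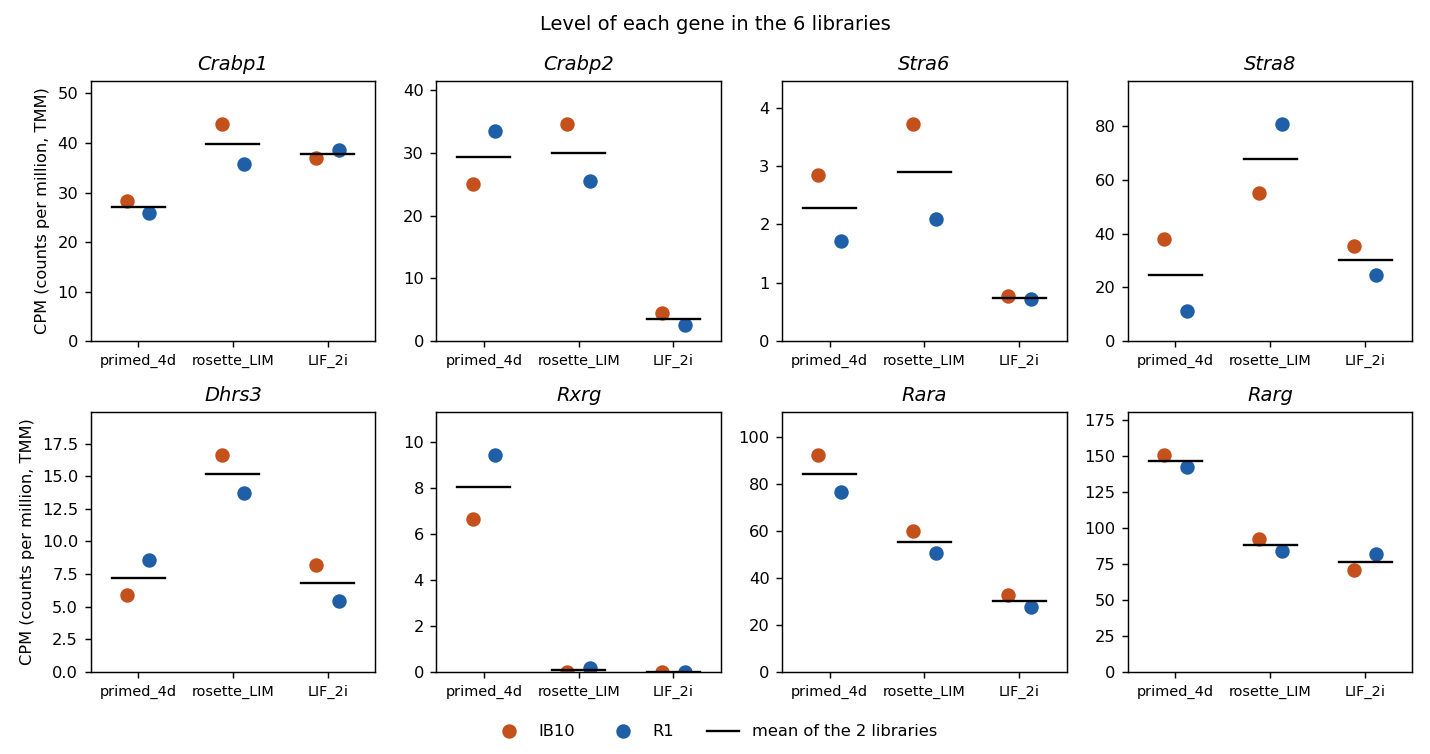
Level of each of the 8 genes (y axis, CPM after TMM scaling, each panel on its own scale from 0) in primed_4d, rosette_LIM and LIF_2i, with 1 point per library (IB10 and R1) and a bar at the mean of the 2 libraries. Crabp2 sits at 25.0 to 34.6 CPM in primed_4d and rosette_LIM and at 2.57 to 4.49 CPM in LIF_2i, and Rxrg is above 0.174 CPM in primed_4d only.

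Stra6, the membrane receptor that takes retinol from its carrier in blood, had few counts in every library: 15 (IB10) and 8 (R1) UMIs in primed_4d, 19 and 12 in rosette_LIM and 6 and 5 in LIF_2i. That made 2.84 and 1.71 CPM in primed_4d, 3.71 and 2.09 CPM in rosette_LIM, and 0.770 and 0.715 CPM in LIF_2i. Both LIF_2i libraries were below the other 4, and primed_4d and rosette_LIM overlapped. The fitted log2 change was 1.59 ± 0.59 (SE) in primed_4d against LIF_2i, 1.92 ± 0.56 in rosette_LIM against LIF_2i and −0.34 ± 0.50 in primed_4d against rosette_LIM. Stra6 lies on GRCm38 chromosome 9 from 58063788 to 58153996 and overlaps Ccdc33 and Gm16131, whose reads may have been counted with it.

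Crabp2 (chromosome 3, 87948666 to 87953376) had 25.0 (IB10) and 33.6 CPM (R1) in primed_4d, 34.6 and 25.6 CPM in rosette_LIM, and 4.49 and 2.57 CPM in LIF_2i. The LIF_2i libraries stood far below the other 4, which mixed: IB10 was lower than R1 in primed_4d and higher in rosette_LIM. Its means were 29.3 ± 6.06, 30.1 ± 6.36 and 3.53 ± 1.35 CPM (SD, n = 2 each), in that order of conditions. The fitted log2 change against LIF_2i was 3.04 ± 0.28 in primed_4d and 3.07 ± 0.28 in rosette_LIM, and primed_4d differed from rosette_LIM by −0.03 ± 0.22. Leaving out 1 library moved the change in rosette_LIM against LIF_2i between 2.73 and 3.52 and that in primed_4d against LIF_2i between 2.58 and 3.53.

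Crabp1 (chromosome 9, 54764748 to 54773110), the carrier linked to holding and clearing retinoic acid in the cytoplasm, had 28.2 and 25.9 CPM in primed_4d, 43.8 and 35.8 CPM in rosette_LIM, and 36.9 and 38.6 CPM in LIF_2i (IB10 and R1 in each). Rosette_LIM and LIF_2i overlapped, and both primed_4d libraries lay below them. The fitted log2 change was −0.48 ± 0.16 in primed_4d against LIF_2i, 0.07 ± 0.16 in rosette_LIM against LIF_2i and −0.55 ± 0.16 in primed_4d against rosette_LIM. The carriers thus differed in their order of conditions: Crabp1 had its lowest mean in primed_4d, and Crabp2 in LIF_2i.

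Dhrs3 (chromosome 4, 144892827 to 144928209), which turns retinal back into retinol and is itself induced by retinoic acid, had 5.88 (IB10) and 8.56 CPM (R1) in primed_4d, 16.6 and 13.7 CPM in rosette_LIM, and 8.21 and 5.44 CPM in LIF_2i. Both rosette_LIM libraries were above the other 4, and primed_4d and LIF_2i overlapped. Rosette_LIM exceeded LIF_2i by a log2 change of 1.15 ± 0.28, primed_4d differed from LIF_2i by 0.08 ± 0.31, and primed_4d was below rosette_LIM by −1.07 ± 0.29. With every well thinned to 6000 UMIs the last value was −0.57. The lines went opposite ways in primed_4d against LIF_2i, at −0.48 in IB10 and 0.65 in R1.

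Rara (chromosome 11, 98927818 to 98974942), the receptor RARα, had 92.3 (IB10) and 76.6 CPM (R1) in primed_4d, 60.0 and 50.6 CPM in rosette_LIM, and 32.96 and 27.6 CPM in LIF_2i. No 2 conditions overlapped, and IB10 was above R1 in all 3. The log2 change was 1.48 ± 0.14 in primed_4d against LIF_2i, 0.87 ± 0.14 in rosette_LIM against LIF_2i and 0.61 ± 0.13 in primed_4d against rosette_LIM. The 2 lines gave nearly the same changes: 1.49 in IB10 and 1.47 in R1 for primed_4d against LIF_2i, and 0.86 and 0.88 for rosette_LIM against LIF_2i. Rara overlaps the annotated gene Gm22061.

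Rarg (chromosome 15, minus strand, 102234938 to 102257517), the receptor RARγ, had 150.5 (IB10) and 142 CPM (R1) in primed_4d, 92.0 and 83.9 CPM in rosette_LIM, and 70.5 and 82.0 CPM in LIF_2i. The primed_4d libraries were above the other 4, while the lower rosette_LIM library and the higher LIF_2i library were only 83.9 and 82.0 CPM. The fitted log2 change was 0.94 ± 0.13 in primed_4d against LIF_2i, 0.21 ± 0.13 in rosette_LIM against LIF_2i and 0.74 ± 0.13 in primed_4d against rosette_LIM. In rosette_LIM against LIF_2i the lines gave 0.38 in IB10 and 0.03 in R1.

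Rxrg (chromosome 1, 167598384 to 167639623), the retinoid X receptor RXRγ, had 35 (IB10) and 44 (R1) UMIs in primed_4d, 0 and 1 in rosette_LIM, and 0 and 0 in LIF_2i. That made 6.63 and 9.41 CPM in primed_4d (8.02 ± 1.97 CPM, SD, n = 2), 0 and 0.174 CPM in rosette_LIM, and 0 CPM in both LIF_2i libraries. Primed_4d was at least 39.1-fold higher than LIF_2i, taking 3 counts over the LIF_2i group as the floor. Against rosette_LIM the ratio was 86.3 (exact 95% counting interval 15.0 to 3450), and between rosette_LIM and LIF_2i no fold is given because both were at or under the floor. RefSeq lists 2 start sites for Rxrg. The window of 250 bases before to 50 after the inner start (GRCm38.p6, chr1:167618015-167618314, plus strand) is shown because Rxrg was near 0 in 2 of the 3 conditions and held in this window both half-sites searched for. Capitals mark AGTTCA at −164 and AGGTCA at −88, counted from the start site to the first base of the half-site.
Rxrg inner start: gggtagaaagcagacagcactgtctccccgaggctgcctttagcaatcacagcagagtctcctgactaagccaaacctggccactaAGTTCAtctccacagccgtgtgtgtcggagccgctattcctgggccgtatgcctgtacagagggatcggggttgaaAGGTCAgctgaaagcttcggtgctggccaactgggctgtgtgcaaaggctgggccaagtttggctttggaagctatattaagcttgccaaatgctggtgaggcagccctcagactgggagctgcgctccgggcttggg
The outer window (chr1:167598112-167598411) held neither half-site, and counting of 3′ ends does not tell which start site was used.

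Stra8 (chromosome 6, 34920163 to 34939344), the retinoic acid induced regulator of entry into meiosis, had 37.9 (IB10) and 11.1 CPM (R1) in primed_4d, 55.3 and 80.7 CPM in rosette_LIM, and 35.4 and 24.7 CPM in LIF_2i. Both rosette_LIM libraries were above the other 4, and primed_4d and LIF_2i overlapped. The lines were ordered differently: IB10 was above R1 in primed_4d and LIF_2i and below it in rosette_LIM. Means were 24.5 ± 18.9, 68.0 ± 18.0 and 30.1 ± 7.53 CPM in primed_4d, rosette_LIM and LIF_2i (SD, n = 2 each), and the SD in primed_4d was the largest relative to its mean of any member in a condition where the mean was above 1 CPM. The fitted log2 change was 1.24 ± 0.31 in rosette_LIM against LIF_2i, with 0.64 in IB10 and 1.71 in R1. In primed_4d against rosette_LIM it was −1.56 ± 0.33, with −0.54 in IB10 and −2.86 in R1, and in primed_4d against LIF_2i −0.32 ± 0.34. Single libraries decided much of the size: without the R1 rosette_LIM library the change in rosette_LIM against LIF_2i was 0.40, and without the IB10 rosette_LIM library it was 1.96. With every well thinned to 6000 UMIs, the change in rosette_LIM against LIF_2i was 0.77, below 2-fold. The change in primed_4d against rosette_LIM was −0.80 without the R1 rosette_LIM library and −2.63 without the IB10 primed_4d library.

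The Stra8 promoter window (GRCm38.p6, chr6:34920698-34920997, plus strand, from RefSeq) is shown because Stra8 is the member named for its response to retinoic acid. Capitals mark AGGTCA at −194 and at −38. The window lies inside the GENCODE span given above for Stra8, so these positions hold for the RefSeq start only. The windows of Stra6 and Rara likewise lie inside the spans given for those genes.
Stra8: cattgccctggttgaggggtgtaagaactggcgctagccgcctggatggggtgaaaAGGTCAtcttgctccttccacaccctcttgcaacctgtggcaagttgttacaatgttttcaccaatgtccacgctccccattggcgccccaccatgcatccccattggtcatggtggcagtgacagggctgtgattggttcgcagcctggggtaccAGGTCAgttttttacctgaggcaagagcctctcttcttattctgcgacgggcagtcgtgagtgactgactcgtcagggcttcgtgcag
Promoter windows were found for 7 of the 8 members, 17 windows in all; Crabp2 was not among them. Over both strands, AGGTCA was present in 16.3% and AGTTCA in 14% of all 32851 RefSeq promoter windows of 300 bases. Direct repeats of half-sites (2 copies on 1 strand, each of them AGGTCA or AGTTCA or the same with G in place of the first A) with a gap of 0, 1, 2 or 5 bases were in 0.213%, 0.222%, 0.268% and 0.0974% of all windows. None of the 17 members' windows held such a repeat. Besides the windows shown, AGTTCA was in a window of Stra6 and one of Rara, and AGGTCA in another window of Rara and one of Rarg. The windows of Crabp1 and Dhrs3 and the other windows of Stra6, Rara and Rarg held neither half-site. A match of letters is a description of the window and not a site of binding.

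Counted at a change of 2-fold or more, 4 of the 8 members were higher and 0 lower in primed_4d than in LIF_2i (Crabp2, Stra6, Rara and Rxrg), where 10.6% of the 12098 genes tested were higher by as much and 10.7% lower. In rosette_LIM against LIF_2i, 4 of the 7 members with a fold were higher (Crabp2, Stra6, Stra8 and Dhrs3) and 0 lower, and 3.98% of all genes were higher by as much and 2.46% lower. In primed_4d against rosette_LIM, 1 of 8 was higher (Rxrg) and 2 were lower (Stra8 and Dhrs3), and 9.26% of all genes were higher by as much and 11% lower. The libraries of the groups did not overlap for 6 of the 8 members in each of the 3 comparisons, which was so for 68.3% of all genes tested in primed_4d against LIF_2i, 48.5% in rosette_LIM against LIF_2i and 65.5% in primed_4d against rosette_LIM. Since these contrasts were in view when the set was made, nothing is read from these counts. The comparisons share libraries and are not independent of each other.

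**Figure D2:**
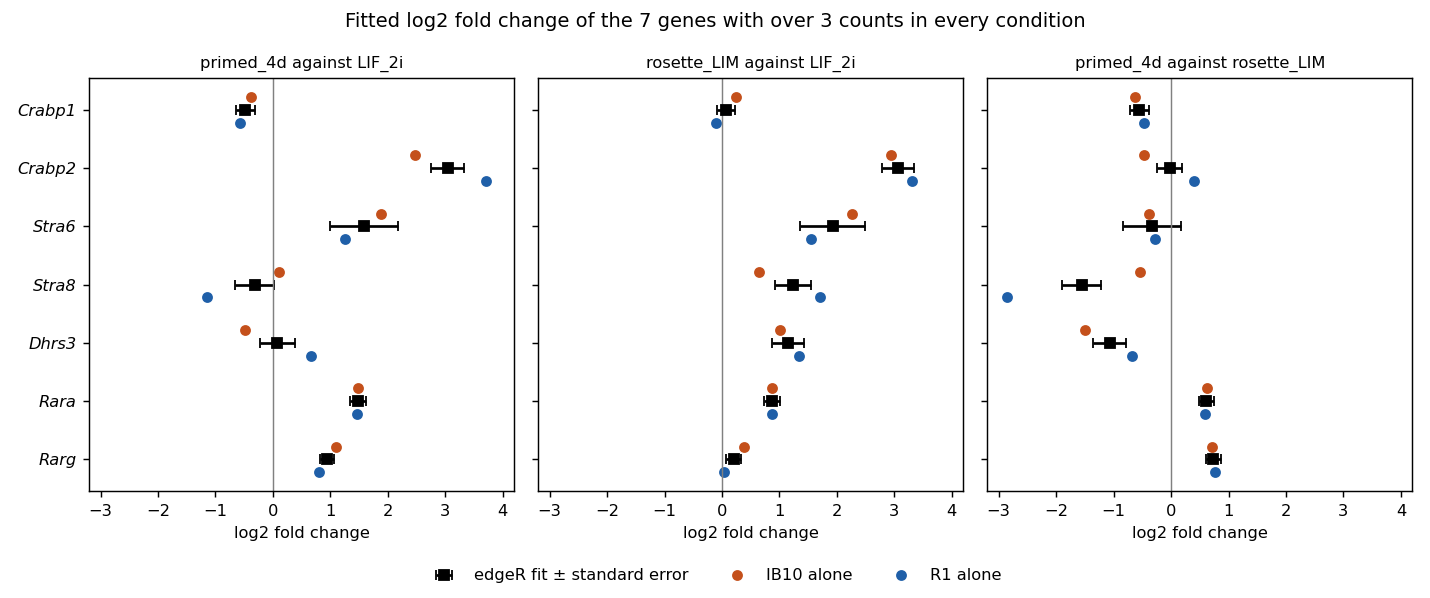
Fitted log2 fold change (x axis, square, bar ± SE) of the 7 members other than Rxrg in primed_4d against LIF_2i, rosette_LIM against LIF_2i and primed_4d against rosette_LIM, with the change in IB10 alone and R1 alone as points. The points of Rara lie nearly on the fit in every panel, while those of Stra8 in primed_4d against rosette_LIM lie at −0.54 (IB10) and −2.86 (R1).

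The levels in both lines were also in view when the set was made, so the members' differences between IB10 and R1 are described without a test. Rara was higher in IB10 in 3 of 3 conditions, by 0.26 ± 0.11 (SE) on the log2 scale, with means of 61.7 CPM in IB10 and 51.6 CPM in R1. Stra6 was at 2.44 CPM in IB10 and 1.505 CPM in R1, also higher in 3 of 3 conditions (0.63 ± 0.44), and Rxrg at 2.21 CPM in IB10 and 3.20 CPM in R1 (−0.57 ± 0.54), almost all of it from primed_4d. For Stra8 the fitted difference was 0.41 ± 0.27, with means of 42.9 CPM in IB10 and 38.9 CPM in R1. Without the R1 rosette_LIM library it was 1.03, without the IB10 one 1.02, and without either primed_4d library −0.05. Over 452 genes of chromosome 6, where Stra8 lies, the median IB10 minus R1 difference was 0.053 in primed_4d, 0.081 in rosette_LIM and 0.093 in LIF_2i on the log2 scale, taken relative to all genes of at least 5 CPM; on the other members' chromosomes it lay between −0.026 and 0.042. The part of this chromosome-wide difference in the Stra8 values was not tested.

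Sums over wells do not tell fewer cells with a transcript from less of it in each cell, so the share of wells with a UMI was also taken. In the wells as sequenced, Rxrg had a UMI in 26 of 188 (IB10, 13.8%, exact 95% interval 9.24 to 19.6%) and 29 of 188 wells (R1, 15.4%, 10.6 to 21.4%) of primed_4d, in 0 of 188 (IB10) and 1 of 188 (R1) of rosette_LIM, and in 0 of 188 of each LIF_2i library. A count of 0 in 188 wells allows a share of wells with a UMI of up to 1.60% by the floor of 3 counts (1.94% by the upper bound of the exact 95% interval), which is no limit on cells that express the gene. No well held more than 5 Rxrg UMIs. After thinning, 169 (IB10) and 104 (R1) wells of primed_4d, 150 and 179 of rosette_LIM, and 184 and 160 of LIF_2i remained, at 6000 UMIs each.

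On the thinned wells Crabp2 was found in 16.0% (IB10) and 20.2% (R1) of primed_4d, 13.3% and 11.7% of rosette_LIM, and 2.17% and 1.88% of LIF_2i wells; as sequenced these shares were 40.4% and 34.0%, 31.9% and 34.0%, and 16.0% and 7.45%. Rara was found in 40.8% and 37.5% of thinned primed_4d wells, 25.3% and 26.3% of rosette_LIM wells, and 17.4% and 11.9% of LIF_2i wells (as sequenced 76.1% and 49.5%, 64.4% and 66.0%, and 60.6% and 48.9%). In R1, whose primed_4d wells were the shallowest, the Rara shares as sequenced were not in the order of its CPM; among wells of at least 6000 UMIs, not thinned, they were 85.6% in primed_4d, 69.3% in rosette_LIM and 56.9% in LIF_2i, which is that order. Rarg was the most widely found member, in 57.4% and 54.8% of thinned primed_4d wells, 40.0% and 37.4% of rosette_LIM wells, and 33.2% and 39.4% of LIF_2i wells (as sequenced 83.5% and 56.9%, 70.2% and 78.2%, and 89.4% and 77.1%). Stra8 was found in 18.3% and 7.69% of thinned primed_4d wells, 25.3% and 25.7% of rosette_LIM wells, and 20.1% and 14.4% of LIF_2i wells (as sequenced 45.7% and 16.0%, 54.3% and 57.4%, and 66.0% and 29.8%). In rosette_LIM the lines had nearly the same share of Stra8 wells although the level was 55.3 CPM in IB10 and 80.7 CPM in R1. Crabp1 was found in 14.8% and 10.6%, 24% and 17.3%, and 17.4% and 23.8% of thinned wells, Dhrs3 in 4.14% and 9.62%, 11.3% and 6.70%, and 4.35% and 4.38%, and Stra6 in at most 2.67%, in the same order (as sequenced Crabp1 34.6 to 70.7%, Dhrs3 11.2 to 29.8% and Stra6 2.66 to 8.51%). No cell type that lacks these genes was on the plates, so the share that free RNA gives was not measured.

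**Figure D3:**
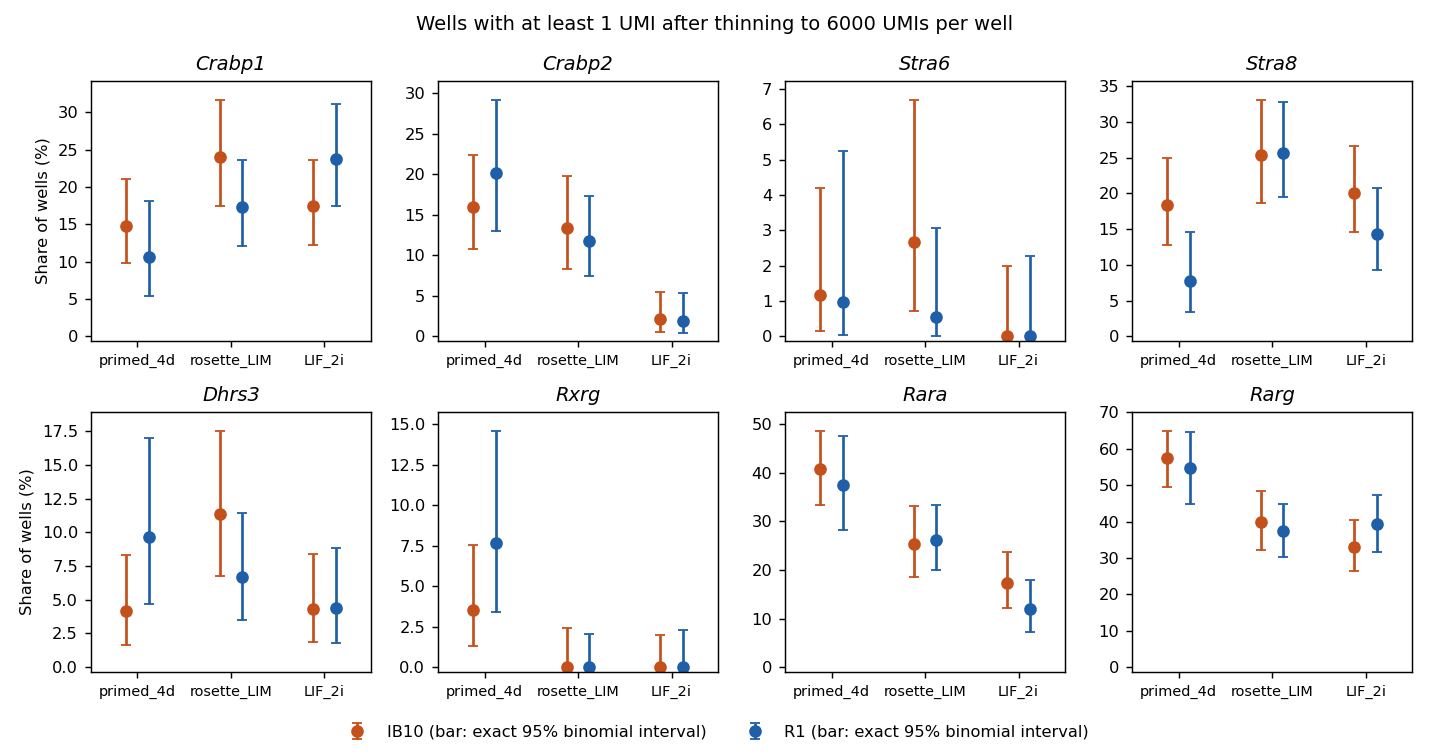
Share of wells with at least 1 UMI of each gene (y axis, percent, each panel on its own scale) after every well was thinned to 6000 UMIs, by condition, for IB10 and R1; bars are exact 95% binomial intervals, which cover counting error only. Rxrg is seen in 3.55% (IB10) and 7.69% (R1) of primed_4d wells and in none of the others, and the shares of Rara and Rarg are highest in primed_4d.

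How unevenly a transcript was spread over the wells of a library was described by the variance over the mean of thinned UMIs per well, which is near 1 when every well has the same level and only counting varies. It was computed for the 26 pairs of gene and library with at least 20 thinned UMIs, beside the genes of the same library with a mean within a factor of 1.25. For 19 of the 26 it lay between 0.941 and 1.24, at or below the 90th percentile of those genes. Leaving out the 1 well with the most UMIs of the gene brought 5 of the other 7 to or below that percentile, all but Stra8 and Crabp2 in R1 rosette_LIM. Stra8 reached 2.11 in R1 rosette_LIM, where genes of similar mean had a median of 1.05 and a 90th percentile of 1.23, and 1.83 without that well. In R1 LIF_2i it was 1.96 (median 1.02 and 90th percentile 1.20), which rested on 1 well with 6 UMIs: without it the value was 1.02. R1 primed_4d held 8 thinned Stra8 UMIs, under the minimum. In IB10 the ratio for Stra8 was 1.09 in primed_4d, 0.952 in rosette_LIM and 1.13 in LIF_2i, and no difference between lines was tested. In R1 rosette_LIM, 7 of 179 thinned wells held 3 or more Stra8 UMIs, and in IB10 rosette_LIM 0 of 150 did. As sequenced, the 5 wells with most Stra8 held 31.97% of its UMIs in R1 rosette_LIM, with up to 46 in a well, and 20.1% in IB10 rosette_LIM, with up to 13. In R1 LIF_2i the corresponding share was 40.5%, in the library where 2 wells held 12.7% of all UMIs, and in IB10 LIF_2i it was 15.6%.

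Crabp2 had a variance over mean of 1.32 (IB10) and 1.54 (R1) in rosette_LIM, against a median of 1.03 for genes of similar mean in each (1.13 and 1.40 without the 1 well with most Crabp2), and of 1.24 and 1.22 in primed_4d (medians 1.04 and 1.03). In both rosette_LIM libraries a single well held up to 16 Crabp2 UMIs. Rarg had 1.49 in IB10 primed_4d, where 25 of 169 thinned wells held 3 or more Rarg UMIs, and 1.34 without the 1 well with most; in R1 primed_4d it had 1.19. Rara had 1.20 (IB10) and 1.21 (R1) in LIF_2i, just above the 90th percentiles of 1.18 and 1.21, and 1.09 and 1.16 without the 1 well with most. Pairs of members in the same thinned well, summed over the 6 libraries, were counted beside the number that the product of their shares gives, with no test. Of the 28 pairs, all 14 with over 10 wells from that product are given first. Rara and Rarg shared 108 wells against 111.9, Crabp1 and Crabp2 16 against 16.1, Crabp2 and Rara 36 against 30.5, Stra8 and Dhrs3 17 against 12.1, and Crabp2 and Stra8 13 against 18.3. Crabp1 shared 66 wells with Rarg against 72.0, 36 with Rara against 41.7, 30 with Stra8 against 34.4 and 10 with Dhrs3 against 11.3. Rarg shared 71 with Stra8 against 75.9, 44 with Crabp2 against 45.4 and 22 with Dhrs3 against 26.2. Rara shared 41 with Stra8 against 46.5 and 16 with Dhrs3 against 16.3. Dhrs3 and Rxrg shared 5 wells against 1.0, and Crabp2 and Stra6 5 against 1.2, picked from the other pairs after seeing the counts.

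**Figure D4:**
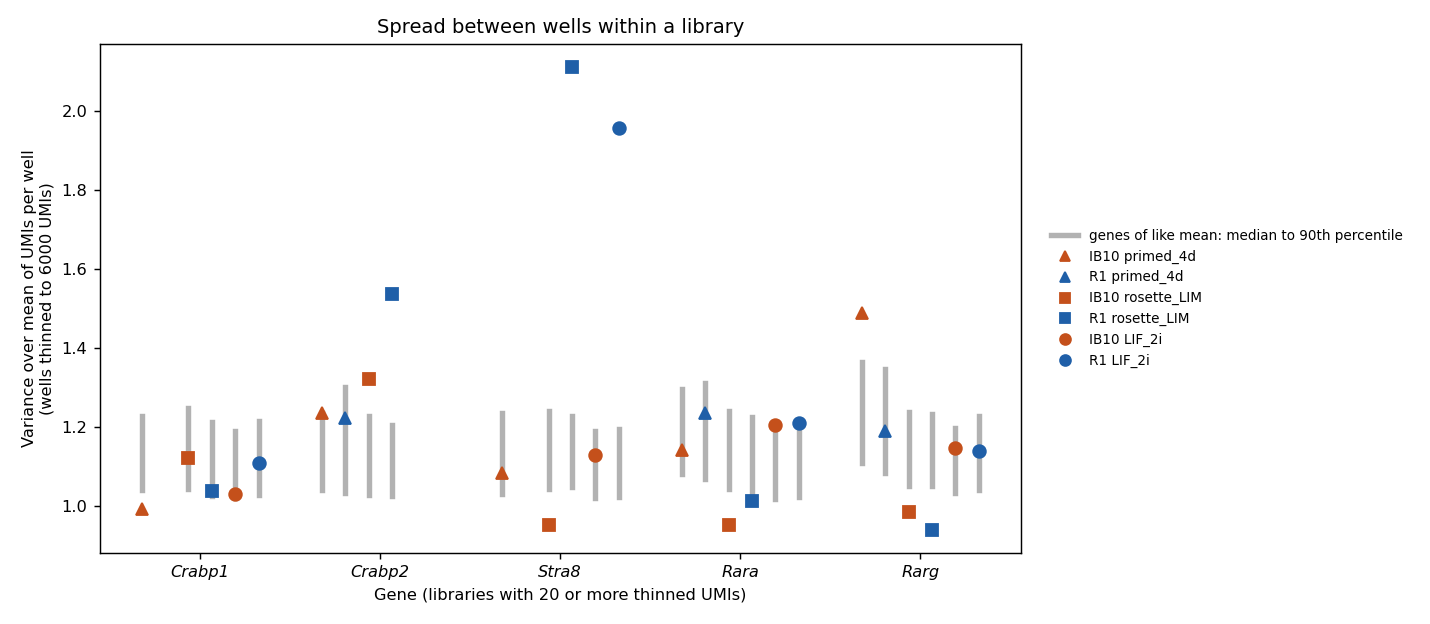
Variance over mean of UMIs per well (y axis) after thinning to 6000 UMIs, for each member and library with at least 20 thinned UMIs, with grey bars from the median to the 90th percentile of genes of similar mean in the same library. Stra8 stands above its grey bar in R1 rosette_LIM (2.11, and 1.83 without its highest well) and in R1 LIF_2i, where the 1.96 rests on 1 well and is 1.02 without it.

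For the 6 members with a mean of at least 5 CPM, the genes whose log2(CPM + 1) was most like theirs over the 6 libraries were picked from 9768 genes by Pearson's r, as a description: 6 libraries in 3 conditions leave few ways to differ, and the genes share library and depth. Crabp2 was most like Cgnl1 (0.997), Rpl39 (0.995) and Pax6 (0.993), and Rara like Neurod1 (0.998), Spata13 (0.998) and Kidins220 (0.997). Rarg was most like Stk17b (0.999), Skil (0.998) and Mcl1 (0.996), and Crabp1 like Mif4gd (0.995), Camk1 (0.991) and Foxn2 (0.991). Stra8 was most like Arhgef3 (0.990), Tmbim4 (0.989) and Prdm1 (0.984), and Dhrs3 like Atp6v1g1 (0.985), Kif14 (0.979) and Rassf4 (0.979).

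The other genes of the pathway were tested with edgeR over a list by role, of which 95 genes were in the counts and 65 passed the filter. In primed_4d against LIF_2i, 24 of the 65 rose and 12 fell (55.4%), where 37.9% of all genes tested passed (18.3% higher and 19.6% lower); the list's median log2 change was 0.20, and that of all genes −0.01. In rosette_LIM against LIF_2i, 4 rose and 3 fell (10.8%), where 5.54% of all genes passed, 3.19% higher and 2.35% lower (medians −0.07 and 0.00161). In primed_4d against rosette_LIM, 23 rose and 10 fell (50.8%), where 36.1% passed, 17.1% higher and 19% lower (medians 0.26 and −0.00261). Lefty1, Cdx1, Hoxb1, Hoxb5 and Tfap2c were known to change in these libraries when the list was made, and they are given below as values with no test. Without these 5, a choice made after seeing the data, 21 of 60 rose and 10 fell (51.7%) in primed_4d against LIF_2i, 2 rose and 2 fell (6.67%) in rosette_LIM against LIF_2i, and 20 rose and 8 fell (46.7%) in primed_4d against rosette_LIM. The rest of the list was also made with results of these libraries known, so its counts are a description beside the shares over all genes, and nothing is read from the difference. Adjusted p-values of single genes below were adjusted over all genes tested and do not allow for this choice of genes.

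Transcripts of the Aldh1a genes, which make retinoic acid from retinal, and of the Cyp26 genes, which clear it, were scarce. The synthesising dehydrogenases Aldh1a1, Aldh1a2 and Aldh1a3 averaged at most 1.36 CPM in any condition and the retinoic acid hydroxylases Cyp26a1 and Cyp26b1, classical targets of retinoic acid, at most 0.498 CPM. The third retinoic acid receptor gene Rarb, another such target, averaged 0.190 CPM in primed_4d, 0.902 CPM in rosette_LIM and 0.678 CPM in LIF_2i. None of these 6 genes passed the filter on low counts. The tested enzymes that oxidise or reduce retinol and retinal averaged from 1.75 CPM (Rdh10 in LIF_2i) to 336 CPM (Adh5 in primed_4d). Of these, 2 of 6 rose in primed_4d and 0 of 6 passed in rosette_LIM, both against LIF_2i, where 37.9% and 5.54% of all genes tested passed. The 2, named after their values were seen, were the retinol dehydrogenase Rdh10 (log2 1.23 ± 0.44, edgeR adjusted p = 0.0405) and Rdh11 (0.69 ± 0.26, edgeR adjusted p = 0.0454).

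Among the receptors outside the set, Rxra, the partner RXRα, was at 9.77 ± 2.83 CPM in primed_4d, 15.6 ± 1.93 CPM in rosette_LIM and 20.6 ± 0.349 CPM in LIF_2i. It fell in primed_4d against LIF_2i (log2 −1.09 ± 0.23, edgeR adjusted p = 0.00193) and against rosette_LIM (−0.69 ± 0.25, edgeR adjusted p = 0.0403, a call lost in 7 of the alternative settings). Rxra was thus lowest in primed_4d, where Rxrg was highest. Fabp5, a fatty acid binding protein that also carries retinoic acid and has many pseudogene copies whose reads cannot be told apart here, rose in primed_4d against rosette_LIM (1.87 ± 0.16, edgeR adjusted p = 5.49e-07). Against LIF_2i, Fabp5 rose in primed_4d as well (1.76 ± 0.15, edgeR adjusted p = 5.86e-07), outside the 10 largest rises. Of the 17 tested coregulators, 2 rose (the orphan receptors Nr2c1 and Nr2f6) and 3 fell in primed_4d against LIF_2i, and 2 rose (Nr2c2 and Nr2f6) and 3 fell against rosette_LIM. In these comparisons 37.9% and 36.1% of all genes tested passed. The coactivators Ncoa1 and Ncoa3 fell against LIF_2i (log2 −0.92 ± 0.18 and −0.81 ± 0.13, edgeR adjusted p of 0.00115 and 0.000268) and against rosette_LIM (−0.84 ± 0.19 and −0.95 ± 0.14), and the corepressor Ncor1 fell against LIF_2i (−0.73 ± 0.13, edgeR adjusted p = 0.000336) and rosette_LIM (−0.54 ± 0.13, edgeR adjusted p = 0.00389). In rosette_LIM against LIF_2i 0 of the 17 coregulators passed, where 5.54% of all genes tested did.

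Of the genes known to be induced by retinoic acid, 26 passed the filter. Of the 21 other than those 5, 11 rose and 4 fell in primed_4d against LIF_2i, 1 rose and 1 fell in rosette_LIM against LIF_2i, and 11 rose and 2 fell in primed_4d against rosette_LIM. The shares of all genes tested that passed were 37.9%, 5.54% and 36.1%, in that order, and nothing is read from the difference. Those named by size of rise in primed_4d against LIF_2i were the homeobox genes Hoxb3, Hoxb2, Hoxb4 and Hoxa5, and Bhlhe40. Hoxa5 (log2 2.20 ± 0.35) and Bhlhe40 (2.48 ± 0.31) had edgeR adjusted p of 0.000173 and 1.90e-05. Hoxb3, Hoxb2, Hoxb4 and Hoxa4 passed the filter through primed_4d alone, so their differences between conditions are given with no test. The counts of rises include them. They averaged 2.79, 13.3, 5.13 and 3.20 CPM in primed_4d and 0.0715, 0.407, 0.535 and 1.16 CPM in LIF_2i. Hoxa4 had a log2 change of 1.48 ± 0.54 against LIF_2i, outside the 10 largest rises, and 2.31 ± 0.64 against rosette_LIM. Those that fell against LIF_2i were Hoxc4 (−3.63 ± 0.55), Meis2 (−2.29 ± 0.19) and Tgm2 (−1.47 ± 0.51), with edgeR adjusted p between 4.01e-07 and 0.0354. Nr2f1 (−1.95 ± 0.59) would not have passed the filter without its LIF_2i libraries, so its difference is given with no test. The count of falls includes it. Against rosette_LIM the 2 that fell were Hoxc4 (−2.58 ± 0.62) and Meis2 (−1.91 ± 0.20). Hoxb2 was at 13.3 ± 13.9 CPM in primed_4d, an SD as large as the mean. Of the 5 left aside, Hoxb1 had 93 UMIs and Hoxb5 44 in primed_4d and both had 0 in rosette_LIM and LIF_2i, so that they passed the filter through primed_4d alone; that made Hoxb1 at least 46.1-fold and Hoxb5 at least 21.8-fold higher in primed_4d than in LIF_2i. The Nodal antagonist Lefty1 had a log2 change of 4.94 ± 0.17 in primed_4d and 2.45 ± 0.16 in rosette_LIM, both against LIF_2i. The caudal homeobox gene Cdx1 had −5.57 ± 0.37 and −3.41 ± 0.28, and Tfap2c −1.90 ± 0.20 and 0.62 ± 0.16, in the same order. The list therefore held large changes of both signs in primed_4d.

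Stra8 acts in the germ line with meiotic genes, and of the 8 tested here 5 rose and 2 fell in primed_4d against LIF_2i, and 5 and 2 against rosette_LIM, while 1 rose in rosette_LIM against LIF_2i. Of all genes tested, 37.9%, 36.1% and 5.54% passed in these comparisons, in that order, and nothing is read from the difference. The recombinase Dmc1 was at 24.7 ± 4.42 CPM in primed_4d, 10.6 ± 2.17 CPM in rosette_LIM and 5.24 ± 0.935 CPM in LIF_2i, with log2 changes against LIF_2i of 2.23 ± 0.23 in primed_4d (edgeR adjusted p = 2.74e-06) and 1.01 ± 0.25 in rosette_LIM (edgeR adjusted p = 0.0255, lost in 6 alternative settings). The piRNA pathway gene Mael (log2 2.60 ± 0.22), the meiotic genes Sycp1 (1.69 ± 0.40) and Sycp3 (1.48 ± 0.19) and the meiotic cohesin Smc1b (0.84 ± 0.22) rose in primed_4d against LIF_2i as well. Their edgeR adjusted p lay between 4.94e-07 and 0.00716. Dazl, a germ cell RNA-binding factor, fell there (−2.54 ± 0.35, edgeR adjusted p = 4.39e-05), and Tex14, a gene of germ cell bridges, fell against LIF_2i (−0.76 ± 0.25, edgeR adjusted p = 0.0256) and rosette_LIM (−1.25 ± 0.25, edgeR adjusted p = 0.00122). Stra8 itself had its highest mean in rosette_LIM, and Dmc1 and Mael in primed_4d. Between the lines, Sycp3, a component of the meiotic chromosome axis, was higher in IB10 than in R1 (0.75 ± 0.16, edgeR adjusted p = 0.0463) and Hoxb2 lower (−2.48 ± 0.51, edgeR adjusted p = 0.0374); these were the 2 of 65 pathway genes called, where 0.752% of all genes tested were, and DESeq2 called neither.

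Some calls of pathway genes rested on 1 library. In rosette_LIM against LIF_2i, Dmc1 was lost without either LIF_2i library and also without IB10 rosette_LIM. In primed_4d against LIF_2i, Tgm2 was lost without IB10 LIF_2i or IB10 primed_4d, and Rxra without IB10 primed_4d. In primed_4d against rosette_LIM, Ncoa1 and Ncor1 were lost without R1 primed_4d. The line differences of Sycp3 and Hoxb2 were both lost without R1 LIF_2i or either primed_4d library, and that of Sycp3 without IB10 LIF_2i.

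**Figure D5:**
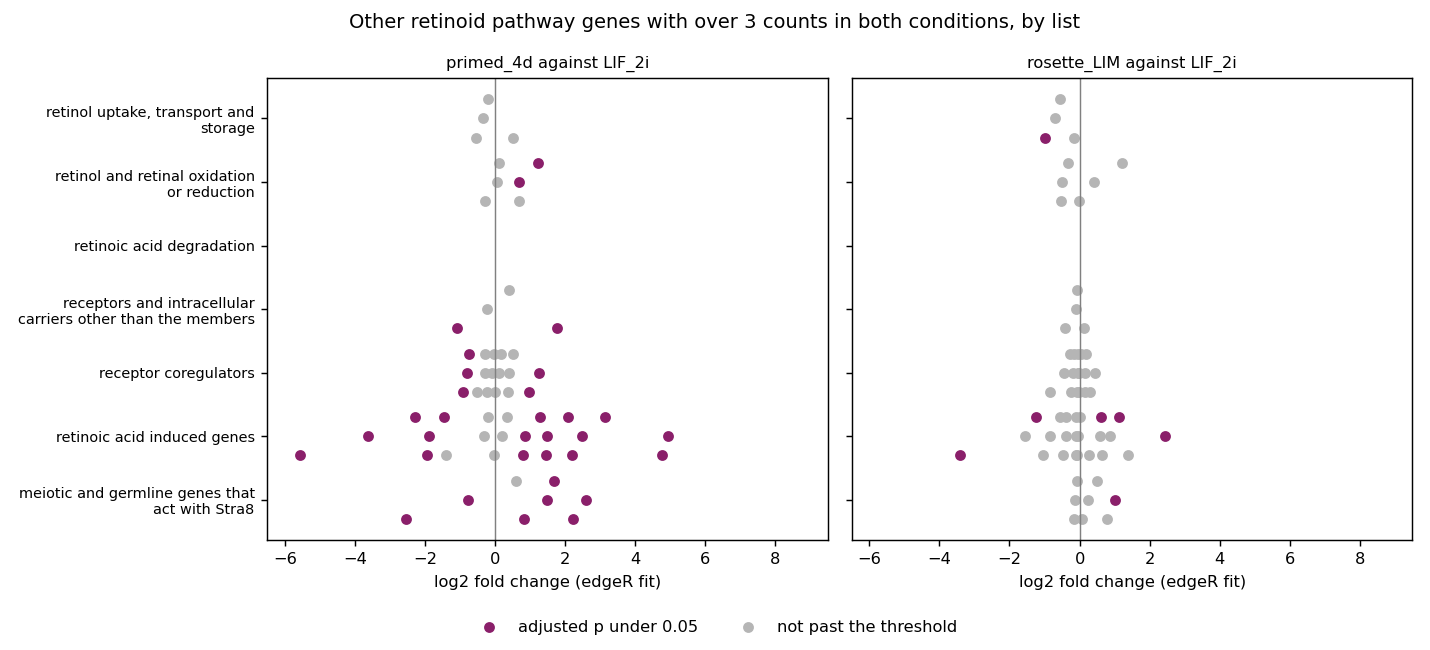
Fitted log2 fold change (x axis) of the other retinoid pathway genes in primed_4d against LIF_2i and rosette_LIM against LIF_2i, 1 point per gene, in rows by role. In each panel 62 genes with more than 3 counts in both conditions are drawn. Colour marks an edgeR adjusted p under 0.05, also for the genes known to change when the list was made. Other genes given in the text with no test are coloured by the same rule. In primed_4d the retinoic acid induced genes spread to both sides, and in rosette_LIM few genes of any row pass.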

How the data were processed

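Cells sorted into plates were measured by SORT-seq, in which CEL-Seq2 reads 3′ transcript ends with molecular identifiers (UMIs), in 6 libraries. The authors deposited an expected count per gene and well. Per the submitters' processing notes, BWA and the mm10/GRCm38 build were used; tool versions, annotation and strand use were not given in the sources used here. Each of the 1297 distinct values matched, within 0.005, a whole UMI count after correction for sharing among 4096 possible UMIs, so the deposited counts carry this correction and no scaling to a common depth. ERCC spike-in rows held 1.75% of counts and were left out of library sizes.

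Wells are not replicates, so counts were summed over the 188 wells of a library and rounded. edgeR 4.0.16 (R 4.3.3) fitted condition and cell line to all 6 libraries with TMM factors and filterByExpr (minimum count 10). Two-sided tests of 12098 genes were adjusted by Benjamini-Hochberg, with a threshold of 0.05. The model holds cell line because the labels give same-numbered libraries the same line (replicate block); across genes, the difference of IB10 from R1 had a correlation of 0.09 between primed_4d and rosette_LIM, 0.205 between primed_4d and LIF_2i and 0.152 between rosette_LIM and LIF_2i. No label names separate cultures of a line, and p-values rest on the spread of these 6 libraries, which may be technical. An exact permutation test of 2 against 2 libraries cannot go below p = 0.333 and was not run. DESeq2 1.42.0 served as an alternative. The fits were tested on simulated counts with known changes.

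Levels are CPM after TMM scaling, mean ± SD of 2 libraries. To compare shares of wells, wells of at least 6000 UMIs were thinned to 6000 at random, and shallower wells were left out of those shares; no doublet caller was run on sorted wells. Intervals are exact 95% (Clopper-Pearson for shares) and, like the floor of 3 counts over a group, cover counting error only. Genes were placed with GENCODE M21 (GRCm38). Promoter sequences are from RefSeq (GRCm38.p6).

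The 8 genes and the pathway lists were chosen with earlier results of these data known. The members' differences between conditions and between lines are therefore given with no test, although a test of the lines was planned, and so are those of 5 pathway genes known to change. Differences between conditions of Hoxa4, Hoxb2, Hoxb3 and Hoxb4 also carry no test, because these genes passed the filter through primed_4d alone. The same holds for Nr2f1, which would not have passed without its LIF_2i libraries. Counts of called genes include them. Adjusted p-values of the other pathway genes do not allow for the choice of the lists. Pathway genes are named where they passed the test, at most 10 per comparison and direction by size of change, and every member is named. A few pathway genes are counted but not reported by name here. For each member with a mean of at least 5 CPM, the 3 genes with the highest Pearson r of log2(CPM + 1) are named.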

Additional observations from a re-analysis of the deposited data

Results flagged for a closer look

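In 4 cases the libraries of IB10 moved one way and those of R1 the other under the same contrast. With 1 library for each line and condition the difference between lines was not tested in any of them. Crabp1 in rosette_LIM against LIF_2i had a log2 change of 0.24 in IB10 and −0.11 in R1, a difference of 0.352. Stra8 in primed_4d against LIF_2i had 0.10 in IB10 and −1.15 in R1, a difference of 1.25. Dhrs3 in primed_4d against LIF_2i had −0.48 in IB10 and 0.65 in R1, a difference of −1.14. Crabp2 in primed_4d against rosette_LIM had −0.47 in IB10 and 0.39 in R1, a difference of −0.860. R1 primed_4d, which enters 3 of the 4, was the library with 84 of 188 wells under 6000 UMIs, and the part of its depth was not tested.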

How the results depend on the processing

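Of 270 values of the members' changes under other settings, 239 moved by less than the spread between replicates and 31 by more, and no called value of any kind changed sign. Small changes took both signs: Stra8 (−1.47 to 0.35) and Dhrs3 (−0.40 to 0.57) in primed_4d against LIF_2i, Crabp2 in primed_4d against rosette_LIM (−0.51 to 0.44) and Crabp1 in rosette_LIM against LIF_2i (−0.08 to 0.20). Of 613 values of the named pathway genes, 543 stayed on their side of the threshold and 70 fell short of it. Without the replicate block by cell line, rosette_LIM against LIF_2i gave 4 pathway genes and 281 genes in all (162 higher, 119 lower) in place of 7 and 670 (386 higher, 284 lower); the other 2 comparisons stayed within 1.5 times, and the line difference could not be had without the block. DESeq2 called 3 pathway genes and 279 genes in all in rosette_LIM against LIF_2i, 23 and 2775 in primed_4d against LIF_2i, 2702 in all in primed_4d against rosette_LIM (4372 by edgeR), and between the lines 0 members and pathway genes and 48 genes in all. With wells thinned to 6000 UMIs, where fewer genes pass the filter, the counts were 2 and 211, 14 and 1866, 13 and 1876, and 0 and 27. With no filter on low counts, 1049 genes were called in rosette_LIM against LIF_2i, and 5 members and pathway genes and 328 genes in all between the lines. Leaving out 1 library gave 2 to 9 pathway genes and 63 to 958 genes in rosette_LIM against LIF_2i, 24 to 39 and 2317 to 5454 in primed_4d against LIF_2i, 26 to 33 and 3062 to 3900 in primed_4d against rosette_LIM, and 0 to 9 members and pathway genes and 0 to 379 genes between the lines. The lowest counts in rosette_LIM against LIF_2i came without R1 LIF_2i (63) or IB10 LIF_2i (149). The cause was not tested. Without the 5 genes known to change when the list was made, chosen after seeing the data, rosette_LIM against LIF_2i had 4 pathway genes, and the other 2 comparisons stayed within 1.5 times. Counts of members and pathway genes between the lines were out of 73 tested in the main fit, 45 with thinned wells and 103 with no filter. They include members, whose line differences are a description, and nothing about the members is read from them. Without the well with most UMIs, also chosen after seeing the data, 2 of 26 spreads over wells lay above the 90th percentile in place of 7. Of 144 shares of wells, 96 moved with thinning or the choice of wells by more than their interval. Stra6, with 5 to 19 UMIs per library, and Rxrg outside primed_4d are limited by depth.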
